A study of Drosophila melanogaster with 10 samples.

Results

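The proteasome subunit genes of Drosophila melanogaster were followed in RNA from OSC, a cell line grown from the somatic tissue of the fly ovary, after depletion of piRNA pathway factors or of HP1a. A gene belonged to the set if its name in the files began with Prosalpha, Prosbeta, Pros plus a digit, Rpn plus a digit or Rpt plus a digit, and if its level averaged at least 1 RPKM over the libraries; RPKM is a read density scaled by transcript length and library size. Of 13984 gene names, 41 fitted the name rule and 31 passed the level filter. The rule used the mean level over all libraries and no difference between them. The values at the edge of the filter were far apart: Prosbeta2R2, just inside, averaged 4.15 RPKM, and Prosbeta2R1, just outside, 0.015 RPKM. All 31 were matched to a gene of the release 6 RefSeq table as symbol or synonym.

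Cells were grown at 26 °C, transfected once with siRNAs and collected 2 days later. The 5 knock-downs targeted the piRNA pathway genes piwi, mael, armi and CG3893 and the heterochromatin gene HP1a; the control cells received EGFP siRNA. Each group has 1 poly(A) RNA library, named below by the depleted factor; the labels name no transgene or mutation. With 1 library per group no difference has a replicate check and no p-value is given. Knock-down was partial: the targeted gene stood between 10.3% of control, for mael, and 48.4% of control, for CG3893, in its own library. The value of 1 read, seen as steps among the lowest values, gave library depths between 0.543 times that of the control, for HP1a, and 1.08 times, for Piwi. The ovarian somatic markers tj, Fas3 and piwi were all present, summing to 443 RPKM in Piwi, where piwi is itself depleted, 684 to 858 RPKM in the other knock-downs and 813 RPKM in the control. These markers did not move alike: in HP1a tj was at 77.5% and piwi at 73.8% of control but Fas3 at 260.0%, and Fas3 was at 151% of control in Piwi. Germline markers summed to 3.87 to 10.8 RPKM across the knock-downs, highest in HP1a, and to 3.92 RPKM in the control. Hemocyte markers summed to 10.6 to 21.8 RPKM across the knock-downs, also highest in HP1a, and to 8.94 RPKM in the control, nearly all of it from srp, with NimC1 and He at 0 in the control. Fat body markers stayed at most at 0.387 RPKM and testis markers at most 3.58 RPKM in sum, with dj, Mst87F, Mst84Da and aly at 0 in the control. Of 4 neuron and 4 muscle markers 3 each were found; neuron markers summed to 9.97 to 12.6 RPKM across the knock-downs and 10.2 RPKM in the control, nearly all from elav, and muscle markers to 5.61 to 7.02 RPKM across the knock-downs and 6.22 RPKM in the control. In such bulk RNA, fewer cells of a type and less RNA per cell cannot be told apart.

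The 26S proteasome degrades proteins tagged with ubiquitin in the cytoplasm and nucleus of all eukaryotic cells. Its 20S core is a stack of rings: outer rings of alpha subunits form the gate, and inner rings of beta subunits hold the proteolytic sites, on beta1, beta2 and beta5. The 19S regulatory particle caps the core; its base holds a ring of ATPases that unfold substrates, and its lid removes ubiquitin. In flies as in mammals, cells can raise the RNA of the whole set together when proteasome activity is short, and in flies this response runs through the transcription factor CncC, encoded by cnc.

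Among the 31 genes 28 encode standard subunits: 7 of the alpha ring, 6 of the beta ring, 5 ATPases and 3 other subunits of the base, and 7 of the lid. The other 3 are Prosbeta2R2, Rpt3R and Rpt6R, variant copies of beta2, Rpt3 and Rpt6. The files use older names for several: Pros25, Pros29, Pros28.1 and Pros35 are the alpha2, alpha3, alpha4 and alpha6 genes, Pros26 is beta6, Pros26.4 is Rpt2, Pros45 is Rpt6 and Pros54 is Rpn10. The genes are scattered over the genome of build dm3, with 11 on chromosome arm 3R, 8 on 2R, 5 on 3L, 4 on X and 3 on 2L.

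The standard subunits were abundant and even in every library. In the control they ran from 83.5 RPKM, for Rpn1, to 419 RPKM, for Pros35, a 5.02-fold range, with the alpha1 gene counted per copy. On the RPKM scale, which corrects for length, the median core subunit stood at 303 RPKM in HP1a, 297 in Mael, 315 in Piwi, 333 in Armi and 323 in CG3893, against 334.6 RPKM in the control. In these medians, and in the shares that follow, the alpha1 gene was counted as the sum over both its loci. The median 19S subunit stood lower, at 214 RPKM in HP1a, 205 in Mael, 221 in Piwi, 225 in Armi and 214 in CG3893, against 225 RPKM in the control. All 31 genes together held between 1.27% and 1.30% of the summed gene RPKM in the knock-downs and 1.22% in the control. The control share was the lowest while its summed gene RPKM, 653145, was the highest, against 567622 to 625673 in the knock-downs.

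**Figure D1:**
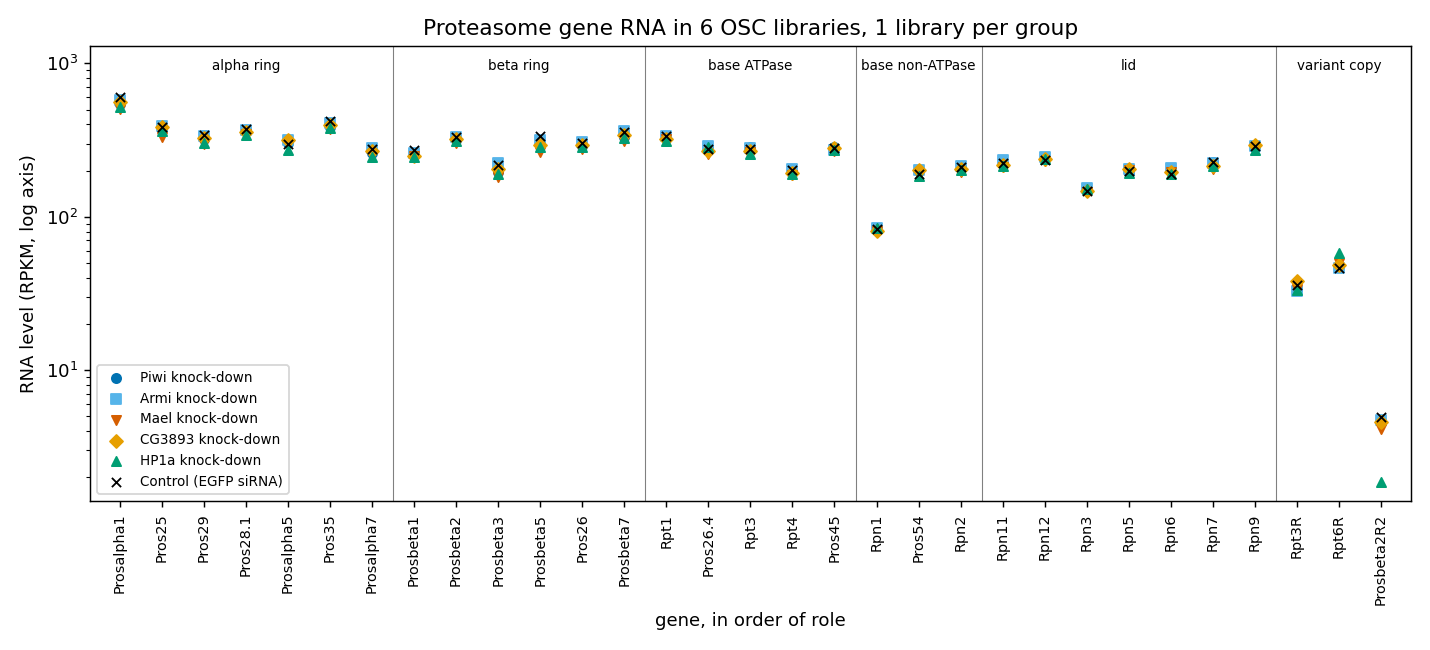
RNA level in RPKM on a log axis for the 31 proteasome genes, grouped by role, with 1 symbol per library and no error, as each group has 1 library; Prosalpha1 is the sum of 2 gene names at 2 loci. The symbols of a standard subunit lie within 1.26-fold of each other. The libraries separate most for Prosbeta2R2, at 1.87 RPKM in HP1a and 4.97 RPKM in the control. For Rpt6R HP1a lies above the others, at 57.7 RPKM.

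Past the size limit used in place of a test, no standard subunit was higher in any of the 5 knock-downs and 1 was lower, Prosbeta5 in Mael. Changes were taken as log2((knock-down + 1)/(control + 1)) of RPKM, and the limit was a log2 change of 0.32 either way, about 25% higher or 20% lower than control. In Piwi 0 of the 31 genes were past the limit higher and 0 lower, where 5.19% and 6.35% of the 7689 genes that average 1 RPKM or more were. In Armi it was 0 and 0, against 5.02% higher and 4.07% lower of all genes. In Mael it was 0 and 1, against 7.08% and 12.9%. In CG3893 it was 0 and 0, against 5.15% and 2.67%, and in HP1a 0 and 1, against 12.3% and 19.2%. The gene lower in HP1a was the variant copy Prosbeta2R2.

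The same shares were also taken over the 1972 genes averaging 50 RPKM or more, which include all 28 standard subunits; this background was chosen after the values were seen. Past the limit lower were 25.6% of these in HP1a, 17.8% in Mael, 3.25% in Piwi, 1.06% in Armi and 1.77% in CG3893. Past it higher were 5.43%, 3.09%, 2.28%, 2.18% and 1.77% in the same order. Of the 28 standard subunits, 0 in HP1a and 1 in Mael were past it lower.

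The median change of the 31 genes was small in each knock-down. It was -0.09 in HP1a, -0.11 in Mael, -0.03 in Piwi, 0.02 in Armi and -0.04 in CG3893 on the log2 scale. Over all 7689 genes the medians were -0.08, -0.05, -0.04, -0.03 and -0.02 in the same order, and over the abundant genes they were -0.17, -0.13, -0.06, -0.03 and -0.05. The 5 knock-downs share 1 control. Of the 140 values of the 28 standard subunits, 104 lay within 0.1 of control on the log2 scale. The same share was not taken for other genes.

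The Mael library held the lowest level of 17 of the 28 standard subunits, HP1a of 8, and Piwi, CG3893 and the control of 1 each. The highest level was in Armi for 15, in the control for 7, in Piwi for 4 and in CG3893 for 2. The share of other genes lowest or highest in each library was not taken, so these counts have no background. Mael and HP1a also had the smallest summed gene RPKM, 567622 and 571376. The order of the libraries by their median relative level depends on scaling: 2 libraries change rank when centred on the median gene and 4 under trimmed mean scaling. The spread behind this order was narrow. The highest library exceeded the lowest by a median of 10.4% among the 28 standard subunits, from 5.09% for Rpn1 to 26.0% for Prosbeta5, and in 27 of the 28 by less than 25%. Among 1944 other genes averaging 50 RPKM or more the median was 22.3%, and 57.7% were under 25%. These genes are not matched in level to the subunits: the median in the control was 96.7 RPKM for them and 278 RPKM for the 28 subunits. How much separate cultures vary cannot be seen from these libraries.

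**Figure D2:**
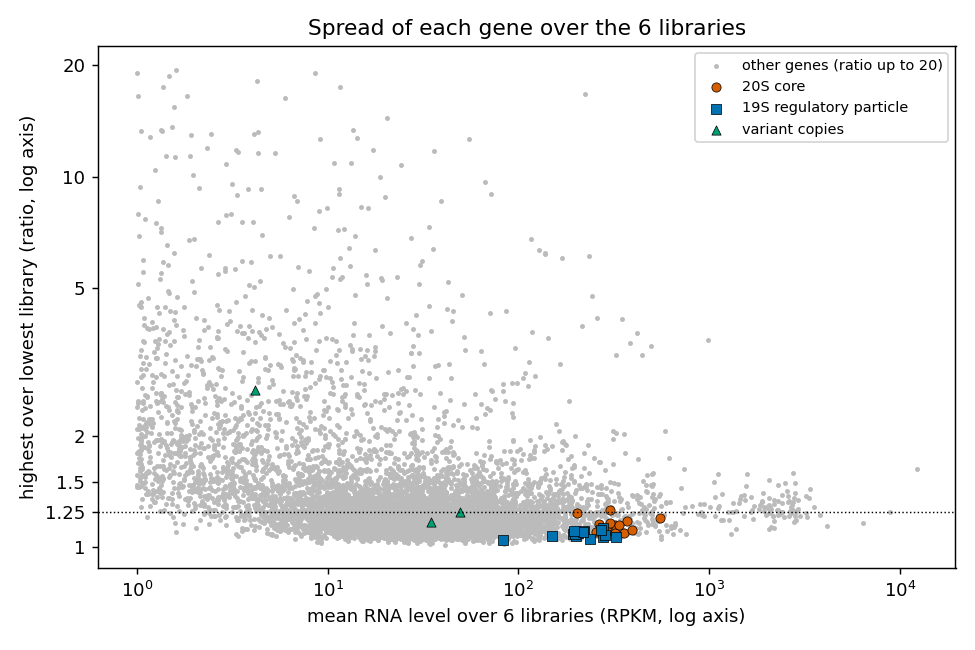
Ratio of the highest to the lowest of the 6 libraries against mean level, both on log axes, for genes averaging 1 RPKM or more; 125 other genes with a ratio above 20 or a library at 0 are not drawn. The 28 standard subunits sit between ratios of 1.05 and 1.26, with Prosbeta3 and Prosbeta5 alone above the median of 1.22 of other abundant genes, while Prosbeta2R2 stands at 2.66.

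The alpha ring opens and closes the entry to the core. The gene Pros35, for alpha6 (2L, 10221352 to 10222503 as the files give it), was the most abundant of the 28 standard subunits with alpha1 counted per copy, at 378 RPKM in HP1a, 376 in Mael, 384 in Piwi, 409 in Armi and 399 in CG3893, against 419 RPKM in the control. The control was its highest library and Mael its lowest. Pros25, for alpha2 (3R, 8257046 to 8258279), was at 363 RPKM in HP1a, 333 in Mael, 367 in Piwi, 393 in Armi and 384 in CG3893, against 385 RPKM in the control. Prosalpha5 was the exception in the ring: it lay above control in 3 of the knock-downs, at 304 RPKM in Piwi, 318 in Armi and 318 in CG3893, below it at 296 RPKM in Mael and 273 in HP1a, and at 299.96 RPKM in the control. Its log2 change was 0.08 in Armi and in CG3893, among the 3 highest of the 31 genes there. The other alpha genes, Pros29, Pros28.1 and Prosalpha7, kept between 86.9% and 103% of control. The alpha ring had a median log2 change of -0.15 in HP1a, -0.16 in Mael, -0.07 in Piwi, -0.02 in Armi and -0.06 in CG3893.

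The alpha1 gene has near-identical neighbouring copies on 2R, and the files give 2 names, Prosalpha1 and CG30382, at each of 2 loci (3714807 to 3716181 and 3717917 to 3719291), with the same value at both loci. Each Prosalpha1 entry held 5.66 RPKM in HP1a, 7.53 in Mael, 7.13 in Piwi, 1.52 in Armi and 14.7 in CG3893, against 6.87 RPKM in the control. Each CG30382 entry held 255 RPKM in HP1a, 245 in Mael, 265 in Piwi, 289 in Armi and 265 in CG3893, against 295 RPKM in the control. Taken alone, the Prosalpha1 name had a log2 change of -1.87 in Armi and 1.05 in CG3893, while the sum of both names stood at -0.06 in Armi and -0.11 in CG3893. The sum over both names and loci was 522 RPKM in HP1a, 505 in Mael, 545 in Piwi, 581 in Armi and 559 in CG3893, against 605 RPKM in the control. Per locus the control value is 302 RPKM, inside the range of the other alpha subunits. The sources used here do not say how reads that match both copies were shared, which leaves the level of this gene uncertain by a factor of 2.

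The beta ring holds the catalytic subunits, of which Prosbeta5 alone was past the limit in any knock-down. Prosbeta5, for the chymotrypsin-like site (2R, 6707468 to 6708685), had the largest change of any standard subunit. It stood at 283 RPKM in HP1a, 266 in Mael, 312 in Piwi, 319 in Armi and 292 in CG3893, against 335 RPKM in the control. Every knock-down lay below the control, the nearest being Armi at 95.2%; the Mael value was 79.4% of control, a log2 change of -0.33, which is within the limit once changes are centred on the median gene. It was also the lowest of the 31 genes in CG3893, at -0.20, and the lowest standard subunit in HP1a, at -0.24. Prosbeta1, for the caspase-like site (2R, 11901308 to 11902285), was at 246 RPKM in HP1a, 249 in Mael, 260.2 in Piwi, 259.7 in Armi and 248 in CG3893, against 271 RPKM in the control. Prosbeta2, for the trypsin-like site (3L, 14993035 to 14994419), was at 311 RPKM in HP1a, 304 in Mael, 315 in Piwi, 333 in Armi and 323 in CG3893, against 331 RPKM in the control. Prosbeta1 and Prosbeta2 kept between 91.1% and 101% of control.

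Among the noncatalytic beta subunits Prosbeta3 (3R, 4831034 to 4831948) spread most, at 189 RPKM in HP1a, 181 in Mael, 195 in Piwi, 225 in Armi and 204 in CG3893, against 218 RPKM in the control. It was the lowest of the 31 genes in Piwi, at a log2 change of -0.16, and stood at -0.26 in Mael, within the limit. Pros26, the beta6 gene, was at 278 to 307 RPKM across the knock-downs, against 305 RPKM in the control, and Prosbeta7 at 313 to 360.1 RPKM, against 356 RPKM in the control. The beta ring had a median log2 change of -0.13 in HP1a, -0.16 in Mael, -0.09 in Piwi, 0.01 in Armi and -0.08 in CG3893.

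The ATPases of the base thread substrates into the core. Rpt1 (2R, 3539942 to 3541453), the most abundant of them, was at 314 RPKM in HP1a, 319 in Mael, 331 in Piwi, 334 in Armi and 323 in CG3893, against 334 RPKM in the control. Pros26.4, the Rpt2 gene, was at 283 RPKM in HP1a, 255 in Mael, 283 in Piwi, 288 in Armi and 269 in CG3893, against 278 RPKM in the control, so that 3 knock-downs lay above and 2 below. Rpt3, Rpt4 and Pros45, the Rpt6 gene, kept between 92.3% and 103% of control. The 5 ATPases had median log2 changes of -0.09 in HP1a, -0.08 in Mael, 0.02 in Piwi, 0.02 in Armi and -0.05 in CG3893.

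The remaining base subunits bind ubiquitin and scaffold the particle. Rpn1 (3L, 19908155 to 19911265), the least abundant standard subunit and also the steadiest, was at 84.6 RPKM in HP1a, 81.0 in Mael, 84.7 in Piwi, 84.6 in Armi and 80.6 in CG3893, against 83.5 RPKM in the control. Pros54, the gene of the ubiquitin receptor Rpn10, was at 185 RPKM in HP1a, 187 in Mael, 200.4 in Piwi, 201 in Armi and 200.3 in CG3893, against 191 RPKM in the control. Rpn2 kept between 93.6% and 102% of control.

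The 7 lid subunits caught by the name rule stayed between log2 changes of -0.14 and 0.12 in all 5 knock-downs. Rpn8 and Sem1, which the files list under other names, went outside that range and are given below. Rpn6 (2R, 10637657 to 10640415), a scaffold that ties the lid to the core, was at 191 RPKM in HP1a, 196 in Mael, 206 in Piwi, 207 in Armi and 195 in CG3893, against 190.3 RPKM in the control. It is the only standard subunit with its lowest level in the control, and it had the highest change of the 31 genes in Piwi, at 0.11, and in Armi, at 0.12. Rpn11, the deubiquitinase of the lid (2L, 5058403 to 5059816), was at 214 RPKM in HP1a, 212 in Mael, 221 in Piwi, 236 in Armi and 216 in CG3893, against 225 RPKM in the control. Rpn3, Rpn5, Rpn7, Rpn9 and Rpn12 kept between 90.9% and 105% of control. The lid medians were -0.04 in HP1a, -0.03 in Mael, 0.00 in Piwi, 0.05 in Armi and 0.01 in CG3893.

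**Figure D3:**
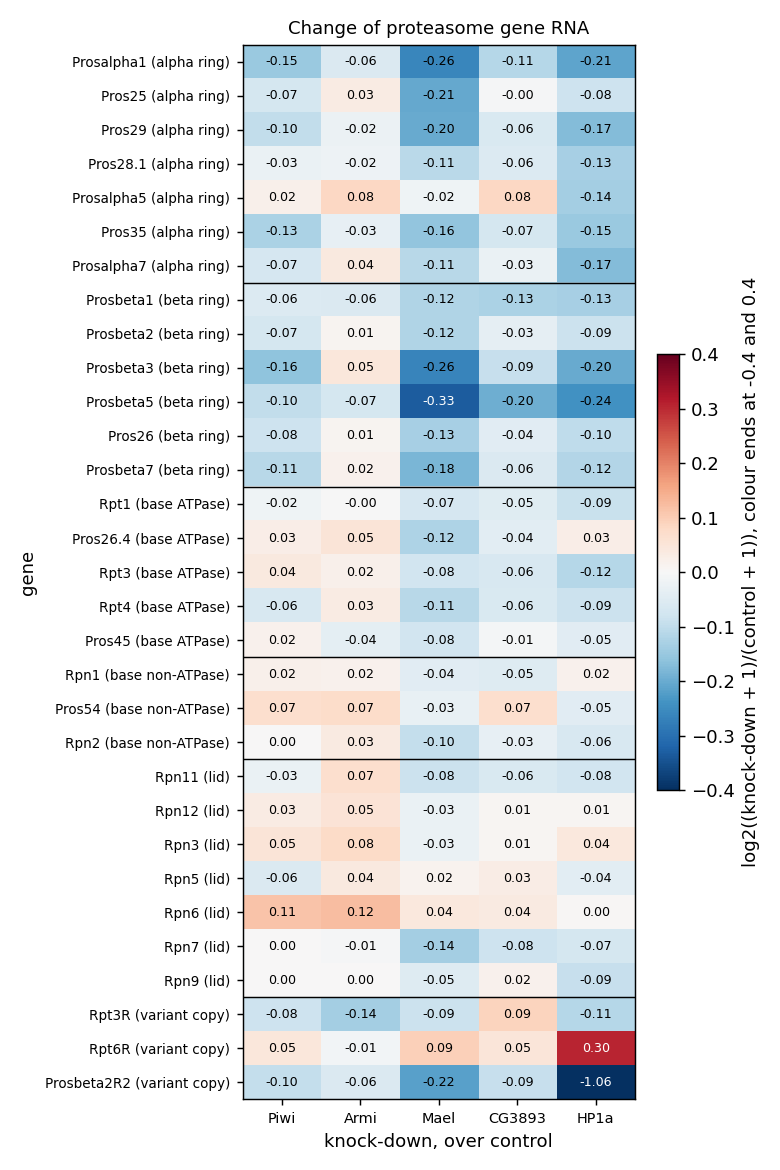
Change of each of the 31 genes in each knock-down over control, as log2((knock-down + 1)/(control + 1)) of RPKM, ordered by role; the colour ends at -0.4 and 0.4, so Prosbeta2R2 in HP1a, at -1.06, is off the scale. The alpha and beta rows are mostly blue in Mael and HP1a, darkest for Prosbeta5 in Mael at -0.33, while the lid rows stay between -0.14 and 0.12 in all 5 columns.

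The core and the 19S particle thus lay apart by a small amount. The core median minus the 19S median was -0.09 in HP1a, -0.09 in Mael, -0.10 in Piwi, -0.02 in Armi and -0.02 in CG3893 on the log2 scale. Below the 19S median were all 13 core subunits in HP1a, 12 in Mael, 12 in Piwi, 10 in Armi and 10 in CG3893. The share of other genes below that cut was not taken. The cut itself was -0.05 in HP1a, -0.07 in Mael, 0.02 in Piwi, 0.03 in Armi and -0.03 in CG3893. The median of the abundant genes, at -0.17, -0.13, -0.06, -0.03 and -0.05 in the same order, also lay below it in every knock-down. The median of all genes lay below it in HP1a, Piwi and Armi and above it in Mael and CG3893. Lying below this cut is therefore not particular to the core. The 5 subunits listed under other names, described below, are in neither group. Of the 19S genes among them, Mov34 lay below the core median in every knock-down and CG13779 above it in every knock-down. Tbp-1 lay above it except in Armi, and CG13349 except in CG3893. CG17331, the beta4 gene, lay below the 19S median in every knock-down. Relative to the median of all genes the core median was -0.06 in HP1a, -0.10 in Mael, -0.05 in Piwi, 0.04 in Armi and -0.04 in CG3893. On the same footing the 19S median was 0.03 in HP1a, -0.01 in Mael, 0.05 in Piwi, 0.06 in Armi and -0.02 in CG3893, so its sign in HP1a turns with that centring. The side on which the core falls depends on the background. Uncentred, the core median was -0.14 in HP1a, -0.16 in Mael, -0.08 in Piwi, 0.01 in Armi and -0.06 in CG3893. It lay above the median of the abundant genes in HP1a and Armi and below it in Mael, Piwi and CG3893.

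Gene length also differed between the groups. The core genes are shorter, with a median locus of 1217 bases against 1653 bases for the 19S genes. Among other abundant genes, 590 with a locus of up to 1500 bases had a median log2 change of -0.22 in HP1a, -0.21 in Mael, -0.09 in Piwi, -0.05 in Armi and -0.10 in CG3893. The 878 with a locus over 1500 and up to 5000 bases had -0.17, -0.12, -0.05, -0.03 and -0.05 in the same order. The core median lay above that of the shorter class in every knock-down, by least in Piwi, at -0.08 beside -0.09. The shorter class minus the longer was -0.05, -0.09, -0.03, -0.02 and -0.05. It had the sign of the core difference in each knock-down but not its order of size: in Piwi the core difference was -0.10 beside -0.03 for length, and in CG3893 it was -0.02 beside -0.05. The part of length in the core difference was not tested, and the split by length was chosen after the values were seen.

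**Figure D4:**
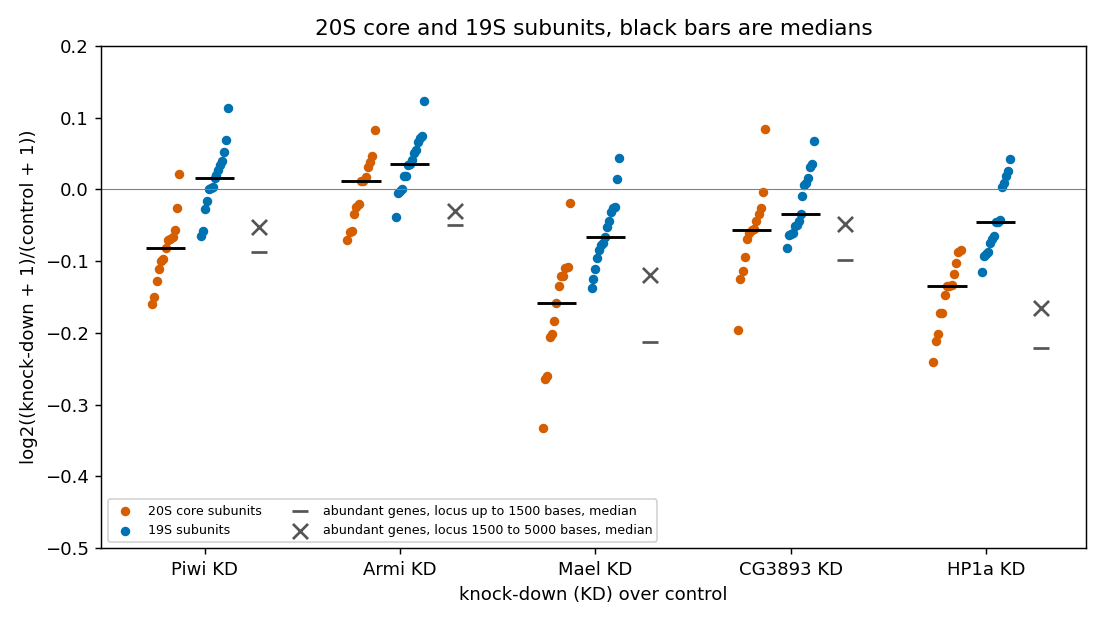
Change of each of the 13 core and 15 subunits of the 19S particle in each knock-down over control, with medians as black bars, beside the medians of other abundant genes in 2 classes of locus length. The core bar lies below the 19S bar in each knock-down, by 0.02 to 0.10, and the shorter abundant genes lie below the longer ones by 0.02 to 0.09.

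The variant copies were far lower than the standard genes. Rpt3R (3R, 5580454 to 5581921), a copy of Rpt3, was at 33.2 RPKM in HP1a, 33.9 in Mael, 33.9 in Piwi, 32.7 in Armi and 38.3 in CG3893, against 36.0 RPKM in the control. It was the lowest of the 31 genes in Armi, at -0.14, and the highest in CG3893, at 0.09. Rpt6R (3R, 26407919 to 26409419), a copy of Rpt6, was at 57.7 RPKM in HP1a, 49.7 in Mael, 48.0 in Piwi, 46.2 in Armi and 48.2 in CG3893, against 46.5 RPKM in the control. HP1a stood apart from the other libraries for this gene, at 124% of control and a log2 change of 0.30, just under the limit and past it once changes were centred on the median gene. The standard gene Pros45 was at 273 RPKM in HP1a and 282 RPKM in the control.

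Prosbeta2R2 (3R, 1043472 to 1045168), a copy of the catalytic beta2 gene, was at 1.87 RPKM in HP1a, 4.14 in Mael, 4.59 in Piwi, 4.74 in Armi and 4.60 in CG3893, against 4.97 RPKM in the control. The HP1a value lay below all the others, at 37.6% of control and a log2 change of -1.06. This was the largest change among the 31 genes in any knock-down. The HP1a library was also the shallowest and the one with the highest sums of germline and hemocyte markers, given above; their part in the HP1a values of Prosbeta2R2 and Rpt6R was not tested. The other 10 names were at or under 0.0525 RPKM in every library, most of them at 0: Pros28.1A, Pros28.1B, Prosalpha3T, Prosalpha6T, Prosbeta2R1, Prosbeta4R1, Prosbeta4R2, Prosbeta5R, Rpn12R and Rpt4R. Prosbeta2R1 reached 0.0525 RPKM in Armi. Several of these copies are known from the fly testis. Reads shared between copies and standard genes may be counted in any of them.

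The name rule leaves out 5 standard subunits that the files list under other names: Mov34 for Rpn8, Tbp-1 for Rpt5, CG17331 for beta4, CG13349 for Rpn13 and CG13779 for Sem1. With them the set reaches 33 subunits. None of the 5 was past the limit in any knock-down. Mov34 was at 184 RPKM in HP1a, 179.7 in Mael, 199.7 in Piwi, 204 in Armi and 202 in CG3893, against 213 RPKM in the control. Its log2 change was -0.22 in HP1a and -0.25 in Mael, below the range of the 7 lid genes of the set. CG13779, the gene of the smallest subunit, was at 471 RPKM in HP1a, 463 in Mael, 538 in Piwi, 553 in Armi and 490.1 in CG3893, against 486 RPKM in the control. Its log2 change was 0.15 in Piwi and 0.19 in Armi, above the range of those lid genes. The median log2 change of the 5 was -0.05 in HP1a, -0.09 in Mael, 0.00 in Piwi, 0.01 in Armi and -0.06 in CG3893.

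Around the proteasome, larger differences appeared in a few partner genes. Of 5 genes for ubiquitin supply and the E1 enzyme, 1 was past the limit higher in each of the 5 knock-downs, the polyubiquitin gene Ubi-p63E. Among genes averaging 50 RPKM or more, 1.77% in CG3893 to 5.43% in HP1a were past it higher. The 5 knock-downs share 1 control. Ubi-p63E stood at 165 RPKM in HP1a, 144 in Mael, 121 in Piwi, 84.9 in Armi and 102 in CG3893, against 60.5 RPKM in the control. The control was the lowest library and HP1a the highest, and the log2 changes were 1.43, 1.24, 0.98, 0.48 and 0.74 in the order of the knock-downs just named. The other polyubiquitin gene, Ubi-p5E, was at 601 RPKM in HP1a, 586 in Mael, 548 in Piwi, 598 in Armi and 632 in CG3893, against 591 RPKM in the control. RpL40, a ubiquitin and ribosomal protein fusion gene, was past the limit lower in Mael alone, at 1971 RPKM in Mael against 2629 RPKM in the control. RpS27A, the other such fusion gene, and Uba1, the E1 enzyme gene, were within the limit in all 5.

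Of 5 assembly and activator genes, REG, the PA28 gamma activator that caps the core in place of the 19S particle, was past the limit lower in HP1a, Mael and Piwi. It stood at 224 RPKM in HP1a, 242 in Mael, 251 in Piwi, 296 in Armi and 286 in CG3893, against 332 RPKM in the control. The control, shared by all the comparisons, was its highest library, and the log2 changes were -0.56, -0.45, -0.40, -0.16 and -0.22 in the same order. Of the genes averaging 50 RPKM or more, 25.6% in HP1a, 17.8% in Mael and 3.25% in Piwi were past the limit lower. CG8979, the gene of the proteasome regulator PI31, was past the limit lower in HP1a alone, at 52.1 RPKM in HP1a against 69.6 RPKM in the control. Pomp, which encodes the maturation factor of the core, ranged over 146 to 157 RPKM with a factor depleted, against 154 RPKM in the control. CG9588 and CG12096, the other 2 of the list, were within the limit.

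Genes that regulate subunit transcription in flies were all within the limit. The gene cnc was at 42.6 to 46.3 RPKM across the knock-downs, against 44.2 RPKM in the control. Its partner maf-S was at 57.4 to 66.2 RPKM across the knock-downs, against 62.7 RPKM in the control, and its inhibitor Keap1 at 3.78 to 5.11 RPKM, against 4.07 RPKM in the control. The highest Keap1 value, in CG3893, was 126% of control, a log2 change of 0.27 with the pseudocount of 1, which shrinks changes of low genes. None of these 3, and none of 8 genes for shuttles, deubiquitinases and unfolding, was past the limit in any knock-down. Over all 7689 genes the share past it on either side ran from 2.67%, lower in CG3893, to 19.2%, lower in HP1a. In lists this short a count of 0 therefore says little. These are RNA levels, and the activity of CncC was not measured. The p97 gene TER94, which extracts ubiquitin-tagged proteins, was at 543 to 573 RPKM across the knock-downs, against 557 RPKM in the control. Rad23, a ubiquitin shuttle gene, was above control in all 5, at 144 to 158 RPKM against 139 RPKM in the control.

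**Figure D5:**
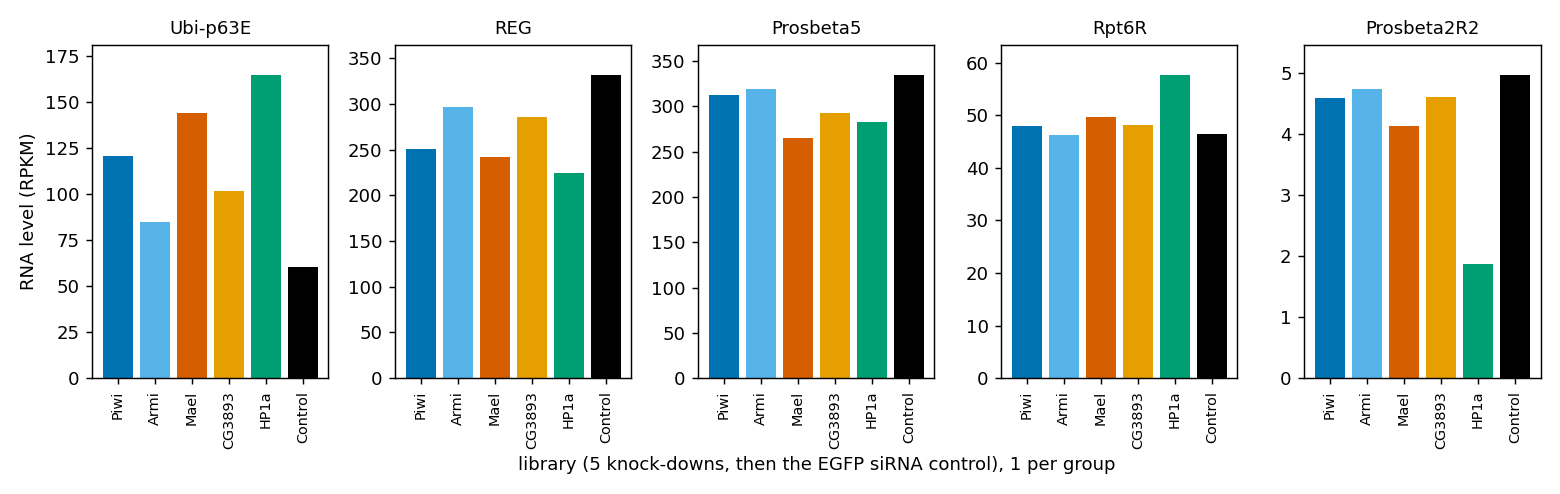
RNA level in RPKM, on axes from 0, of Ubi-p63E, REG, Prosbeta5, Rpt6R and Prosbeta2R2 in the 5 knock-down libraries and the control, 1 library each. Ubi-p63E is lowest in the control at 60.5 RPKM, REG and Prosbeta5 are highest there at 332 and 335 RPKM, and Rpt6R and Prosbeta2R2 part from the other libraries in HP1a.

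Other large complexes gave a scale for these values. The CCT chaperonin, a folding machine of similar RNA level with a median of 394 RPKM in the control, had median log2 changes over 8 genes of -0.16 in HP1a, -0.25 in Mael, -0.13 in Piwi, -0.01 in Armi and -0.07 in CG3893. Past the limit lower were 2 of the 8 in Mael, Tcp-1eta and Cct5, and 1 in HP1a, Tcp-1eta. Of the genes averaging 50 RPKM or more, 17.8% in Mael and 25.6% in HP1a were past it lower. The COP9 signalosome, whose subunits are relatives of those of the lid, had medians over 8 genes of -0.13, -0.09, -0.06, -0.03 and -0.01 in the same order, with 0 past the limit. The difference between these complexes and the proteasome was not tested.

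The genes whose 6 log2 levels most resembled the mean profile of the 31, among 5807 other genes averaging 10 RPKM or more, were sqh, CG9890, CG16941, CG10267 and CG17168, with Pearson's r between 0.993 and 0.998 over the 6 libraries. The gene sqh, for the regulatory light chain of nonmuscle myosin, was at 650.2 RPKM in HP1a, 657 in Mael, 741 in Piwi, 804 in Armi and 749.5 in CG3893, against 782 RPKM in the control. The mean profile gives equal weight to the 3 variant copies, among them Prosbeta2R2 at a log2 change of -1.06 in HP1a. Of the genes listed, sqh, CG9890, CG10267 and CG17168 were lowest in HP1a and CG16941 in Mael, where 17 of the 28 standard subunits were lowest. The ranking was not run on the standard subunits alone. The same libraries and their scaling enter both sides of these correlations, which rank patterns and carry no test.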

How the data were processed

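Poly(A) RNA was measured in 6 libraries of OSC cells, 1 per group, and Pol II chromatin in 4 further libraries; Pol II and transposable element files were not used here. The authors deposited gene values as RPKM, per the file headers. Build dm3 and the tools TopHat2 2.0.7, Cufflinks 2.0.2, Bowtie2 2.0.0 and cutadapt come from the submitters' processing notes. Not given in the sources used here are the gene annotation, whether strand was used, how multiply matching reads were counted, and whether a locus start counts from 0 or 1.

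Rows were summed by gene name, with CG30382 added to Prosalpha1, in Python 3.11.15 with pandas 2.3.3. Changes are log2((knock-down + 1)/(control + 1)). A fixed limit of 0.32 on that scale stood in place of a test; the code was tested on simulated data. Genes in sentences are all members by role, the extremes of each knock-down, and partner genes past the limit in at least 3 knock-downs, with single further partners chosen after their values were seen. The members, lists and limits were chosen with earlier results of these data known. Relative depth came from the most frequent ratio among values under 0.3 RPKM; the absolute depth of a value is not given here, so no counting interval is printed. Beta4, Rpn13 and Sem1 were added to the lists after the values were seen.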

Additional observations from a re-analysis of the deposited data

How the results depend on the processing

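The median log2 change of the proteasome genes moved by less than 0.1 under every alternative run, and ranged from -0.03 to 0.02 in Piwi, 0 to 0.07 in Armi, -0.11 to -0.03 in Mael, -0.04 to 0.00 in CG3893 and -0.09 to 0.00 in HP1a. The sign of the Piwi and CG3893 medians turned under some of these, to as high as 0.02 in Piwi and 0.00 in CG3893. Counting a median as unmoved within 0.1 and a count of genes within 1.5 times, 162 values did not move and 15 did. That tolerance is about as large as the largest median, so a median could vanish or change sign and still count as unmoved. In HP1a it went from -0.09 to -0.0003 with upper quartile scaling and was so counted. The 1 gene past the limit lower in Mael, Prosbeta5, became 0 with changes centred on the median gene, with upper quartile scaling, with trimmed mean scaling, with a limit of 1.5-fold or 2-fold, and against the median of the 5 other libraries. The 0 genes higher in HP1a became 1 with centring, upper quartile or trimmed mean scaling, and the 1 lower in HP1a became 0 with a mean of at least 10 RPKM, which leaves out Prosbeta2R2. With the Prosalpha1 rows alone, 1 gene was lower in Armi and 1 higher in CG3893, in place of 0 and 0. The order of the libraries by relative level of the set changed rank for 2 libraries with centring, 2 with upper quartile and 4 with trimmed mean scaling. No paired analysis was possible because each group holds 1 library, and for the same reason no library could be left out of a group.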

Other observations

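The fall of Prosbeta2R2 RNA in HP1a was set beside its neighbours on 3R. The gene lies 325 bases from cno and 221 bases from CG1116. The gene cno was at 40.9 RPKM in HP1a and 40.2 RPKM in the control, 102% of control, and CG1116 at 15.6 RPKM in HP1a and 18.9 RPKM in the control, 82.4% of control. Of the other neighbours within 20000 bases, CG2604, CG1115, katanin-60, Mms19 and CG12163 stood between 81.3% and 117% of control in HP1a, and retinophilin was under 0.207 RPKM in all 6 libraries. The fall to 37.6% of control was the largest in this stretch among genes averaging 1 RPKM or more, but Prosbeta2R2 was picked for that fall. It averaged 4.15 RPKM, against 17.7 to 162 RPKM for those neighbours, and HP1a was the shallowest library. Of all 7689 genes, 1.9% were past 2-fold lower in HP1a.

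By chromosome arm the medians of the proteasome genes lay close together. In Mael they ran from -0.12 for the 11 genes of 3R to -0.04 for the 5 genes of 3L, and in HP1a from -0.15 for the 8 genes of 2R to -0.05 for the 5 of 3L.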
